A study of Rattus norvegicus with 24 samples.

Results

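To describe what partial liver resection left behind in the brain a day later, mRNA was compared between operated and unoperated rats in 2 stress-related nuclei at once. The comparison used all 24 libraries of the series, 18 from operated animals and 6 from the normal control (NC) group, and its members were chosen by treatment label alone. The regions were the hypothalamic paraventricular nucleus (PVN) and the central amygdala (CEA), and in each of them 9 operated libraries faced 3 NC libraries. The operated libraries came in equal number from rats with hepatectomy only (HT), hepatectomy with electroacupuncture (labelled HT+EA, here EA) and hepatectomy with sham needles that carried no current (SEA). Rats were male Sprague-Dawley animals, bought at 7 weeks and kept for 1 week before the experiment. A part of the left liver lobe was removed under isoflurane, and the needles were placed at the Zusanli and Sanyinjiao points on the day before and right after the operation. NC rats were not operated on and no sham operation is described, so the resection and its isoflurane anaesthesia cannot be told apart. Rats of all 4 treatments were held in a restraint belt while awake, and tissue was collected 1 day after the needles were last used. The EA and SEA libraries also carry whatever the needles did, and each of these treatments is set beside HT further on.

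Neurons of the PVN secrete corticotropin-releasing hormone, which drives the pituitary and adrenal stress axis, and the CEA is a main output of the amygdala for fear, pain and autonomic responses. Surgery raises circulating cytokines and glucocorticoids, to which vessels, glia and neurons of the brain respond. Immediate early genes such as Fos and Junb are transcribed within minutes of neuronal activity. Cholesterol and long-chain fatty acids of the brain are made locally, mostly by glia, through enzymes whose genes share the sterol-regulated transcription factors SREBP-1 and SREBP-2, while Top2a, Kif11 and Bub1 are active in dividing cells such as glial progenitors.

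In short, 36 genes differed between operated and NC rats over both regions, among them genes of lipid synthesis, cell division and neuronal activity, which were lower in operated rats, and Heph, a gene of iron export, and Lrg1, a gene induced in inflammation, which were higher. The promoters of 3 cholesterol synthesis genes and 3 cell division genes that fell are shown, picked after the values were seen. Nusap1 and Cdc20 were not on the cell division list made with the design. The promoters are RefSeq windows of the GRCr8 assembly, matched by symbol. Each runs from 250 bases before the start of the transcript to 50 bases after it. Capitals mark CCAAT, the box bound by NF-Y, on either strand, and in the cell division genes also TTTGAA, the core of the cell cycle homology region. Kif11, a called member of the cell division list, had CCAAT but not TTTGAA and is not shown.
Hmgcs1, chr2:53382054-53382353, plus strand: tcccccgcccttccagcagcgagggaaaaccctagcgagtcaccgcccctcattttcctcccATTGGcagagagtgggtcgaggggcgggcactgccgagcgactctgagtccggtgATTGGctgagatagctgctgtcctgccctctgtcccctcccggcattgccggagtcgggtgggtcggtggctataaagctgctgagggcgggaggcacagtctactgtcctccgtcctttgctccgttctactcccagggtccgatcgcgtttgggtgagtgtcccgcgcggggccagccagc
Mvd, chr19:67414925-67415224, minus strand: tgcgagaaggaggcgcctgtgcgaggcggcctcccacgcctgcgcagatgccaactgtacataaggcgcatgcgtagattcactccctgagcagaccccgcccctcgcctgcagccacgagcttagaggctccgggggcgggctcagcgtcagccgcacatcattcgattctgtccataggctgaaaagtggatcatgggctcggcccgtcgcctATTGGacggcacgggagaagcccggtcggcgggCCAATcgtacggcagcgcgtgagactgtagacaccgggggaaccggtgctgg
Msmo1, chr16:29746863-29747162, plus strand: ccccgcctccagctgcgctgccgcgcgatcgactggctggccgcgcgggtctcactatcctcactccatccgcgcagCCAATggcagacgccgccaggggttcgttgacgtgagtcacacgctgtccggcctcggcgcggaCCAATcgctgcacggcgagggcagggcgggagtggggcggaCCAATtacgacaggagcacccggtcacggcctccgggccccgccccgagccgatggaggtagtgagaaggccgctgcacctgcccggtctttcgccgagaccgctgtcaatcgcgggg
Top2a, chr10:84473044-84473343, minus strand: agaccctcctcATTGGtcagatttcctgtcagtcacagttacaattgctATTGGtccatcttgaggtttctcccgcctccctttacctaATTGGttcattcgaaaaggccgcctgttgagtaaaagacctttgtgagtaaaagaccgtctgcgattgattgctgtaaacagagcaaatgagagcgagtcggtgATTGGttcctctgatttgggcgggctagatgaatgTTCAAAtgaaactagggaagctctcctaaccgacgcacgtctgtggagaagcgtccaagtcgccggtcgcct
Nusap1, chr3:127057045-127057344, plus strand: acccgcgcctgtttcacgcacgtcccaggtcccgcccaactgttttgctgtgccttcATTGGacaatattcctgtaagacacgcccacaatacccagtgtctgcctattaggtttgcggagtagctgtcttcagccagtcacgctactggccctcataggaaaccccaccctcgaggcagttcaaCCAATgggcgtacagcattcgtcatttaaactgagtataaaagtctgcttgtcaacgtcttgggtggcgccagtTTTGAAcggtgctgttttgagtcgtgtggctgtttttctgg
Cdc20, chr5:137255750-137256049, minus strand: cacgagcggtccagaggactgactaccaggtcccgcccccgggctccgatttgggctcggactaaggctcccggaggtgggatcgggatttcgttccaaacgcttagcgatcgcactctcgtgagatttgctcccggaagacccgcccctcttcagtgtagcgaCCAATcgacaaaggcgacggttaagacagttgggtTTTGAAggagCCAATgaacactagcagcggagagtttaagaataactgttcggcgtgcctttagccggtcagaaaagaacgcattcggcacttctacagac

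Of the 36 genes, 30 had a window in the table. CCAAT stood in 18 of the 24 windows of genes that fell and in 3 of the 6 windows of genes that rose, and in 37.7% of 27457 windows of all genes, counted on both strands. Over the full lists, whether or not their members differed, it stood in 14 of 16 windows of cholesterol synthesis genes, 12 of 15 of cell division genes and 4 of 13 of immediate early genes. TTTGAA stood in 7 of the 15 cell division windows and in 2 of the 16 cholesterol windows, against 18.1% of all windows. The sterol regulatory element TCACNCCAC was in 0 of the 16 cholesterol windows (1.13% of all windows), and the D-box TTATGTAA, read by the clock factor Dbp, was in 0 of the 30 windows (0.881% of all). CCAAT and TTTGAA can share 1 base at their ends, and a match describes the letters only. The motifs were chosen after the genes were known.

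Total counts ran from 13152772 to 18607032 per library. Markers separated the regions in part. Sim1, a transcription factor of the developing PVN, was at 9.74 to 16.7 CPM (read counts scaled to library size with TMM factors) in the PVN and at most 0.959 in the CEA. Otp, another such factor, was at 23.6 to 30.3 CPM in the PVN and at most 1.44 in the CEA. Of the CEA markers, Cyp26b1 was at 4.97 to 14.2 CPM in the CEA and 1.15 to 4.15 in the PVN. Prkcd, which marks a class of CEA neurons, overlapped, with 20.2 to 552.6 CPM (median 253.1) in the CEA and 14.6 to 157.7 (median 93.9) in the PVN. Sst, the gene for somatostatin, was higher in PVN NC (216.5 to 463.5 CPM) than in CEA NC libraries (112.5 to 207.7). Summed striatal markers were at 2860 to 4888 CPM in CEA NC and 1804 to 5538 in operated CEA libraries, and at most 242.3 in the PVN. Summed markers of cortical and hippocampal excitatory neurons ran from 50.81 to 422.8 CPM in CEA NC and 12.96 to 445.4 in operated CEA libraries. A few libraries stood apart. The summed level of 8 choroid plexus markers was 1084 CPM in CEA NC replicate 2, 393.2 in EA replicate 1 and 1830 in SEA replicate 2 of the same region, and at most 29.6 in the other 21 libraries. Mitochondrial genes took 3.798% of counts in CEA EA replicate 2 and 10.1% to 14.4% in the other operated CEA libraries. In the PVN, NC replicates 1 and 3 lay at -65.1 and -45.8 on the first principal component of the region, which held 30.2% of the variance, and NC replicate 2 lay at 10.7 among the operated libraries, which ran from -1.93 to 16.2. PVN NC replicate 1 held 0.824 CPM of the thalamic marker Shox2 and 1.08 of the cortical marker Slc17a7. The other PVN libraries held 10.9 to 28.8 and 7.51 to 16.2 CPM of these.

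The 24 libraries may not all be independent. Among 11 genes that were nearly off in some libraries and on in others, PVN and CEA libraries of each treatment matched each other in pairs, with 0 to 2 mismatches per pair. Some libraries outside these pairs were as close. PVN HT replicate 1 had 1 mismatch with CEA HT replicates 2 and 3, and PVN NC replicate 1 had 1 with CEA NC replicate 3. PVN SEA replicate 1 had 1 mismatch with CEA NC replicate 1, as with its own match. In 12 of 12 pairs the matched library was also the one of its treatment whose deviations from the group mean correlated best (0.0357 to 0.30 across genes), and the table of counts lists the same pairs in neighbouring columns. The matched pairs had equal replicate numbers in NC and SEA, and in HT and EA replicate 2 of one region matched replicate 3 of the other. The study's methods divide 12 rats over the 4 treatments and state that brain samples came from different animals of one batch, without saying which samples this refers to, and the labels name no animal. Whether matched libraries share a rat was not settled. If they do, a p-value over 24 libraries counts a rat more than once, so counts with matched pairs taken into account are given as well.

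Over both regions, 36 of 17218 genes had an adjusted p under 0.05 by edgeR's quasi-likelihood test with region as a covariate, 0.209% of those tested. Of these, 9 were higher in operated rats (0.0523%) and 27 were lower (0.157%). The unadjusted p was under 0.05 for 1269 genes (7.37%), of which 588 were higher (3.42%) and 681 lower (3.96%). Each of the 36 had the same direction in the PVN alone and in the CEA alone, and 34 had an unadjusted p under 0.05 in both; since libraries of both regions made the call, this describes the genes and is no further test of them. The exceptions were Ckap2l in the PVN and Bub1 in the CEA. None of the 36 had an unadjusted p under 0.05 for a difference between the regions. The CPM of operated and NC libraries did not overlap in the PVN for 24 of the 36 and in the CEA for 15, where 4.15% and 0.592% of all genes tested were separated in this way (2.14% higher and 2.02% lower in the PVN, 0.273% and 0.319% in the CEA). In both regions at once, 12 of the 36 did not overlap (3 higher and 9 lower). Over all genes tested, 14 were so separated in the same direction in both regions (0.0813%; 0.0174% higher and 0.0639% lower) and 2 in opposite directions (0.0116%). The heat map of the 36 genes shows each library beside the NC mean of its region.

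**Figure D1:**
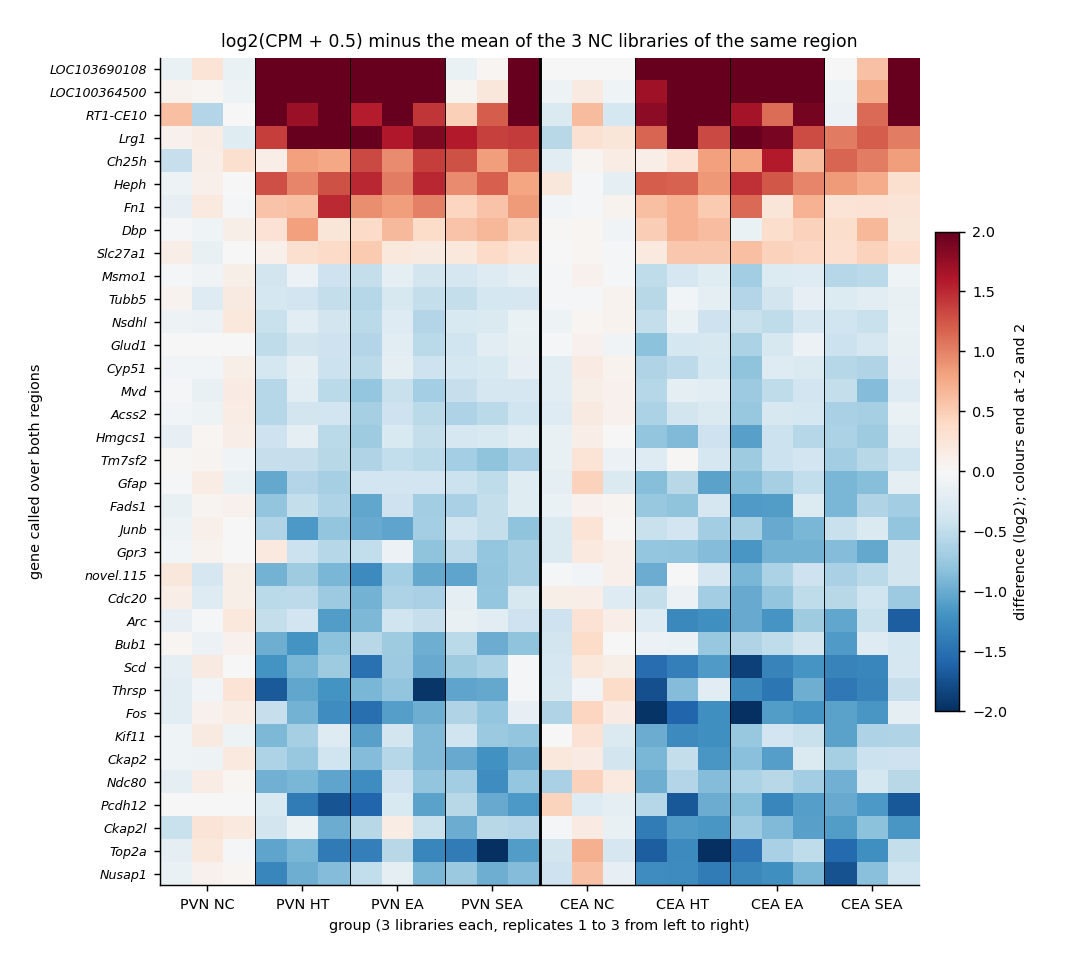
Each of the 36 genes with an adjusted edgeR p under 0.05 over both regions is a row and each of the 24 libraries a column, with PVN left and CEA right of the thick line. Colour is log2(CPM + 0.5) minus the mean of the 3 NC libraries of the same region, red for higher and blue for lower, with colours ending at -2 and 2. Rows run from the largest rise at the top to the largest fall at the bottom; LOC103690108 and LOC100364500 are dark in HT and EA and pale in SEA replicates 1 and 2 of both regions.

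The count was sensitive to single control libraries. With each library left out in turn it ran from 14 to 58, and 9 genes passed in all 24 such fits: Heph, Junb, Acss2, Lrg1, Fads1, Scd, Tm7sf2, Slc27a1 and an unannotated transcript beside Fads2. Without CEA NC replicate 2, 1 of the 3 libraries with high choroid plexus markers, 14 genes were called, 13 of them among the 36. Without PVN NC replicate 3 there were 16, and without CEA NC replicate 3 there were 24. Without CEA HT replicate 2 the count rose to 58, with each of the 36 among them. Leaving out any other operated library left 33 or more of the 36 in the call, and the direction of the 36 did not turn in any of these fits in which they were tested. With the 3 choroid plexus libraries left out, 11 genes were called, 10 of them among the 36, and each of the 36 kept its direction and an unadjusted p under 0.05. When counts of matched PVN and CEA libraries were summed (9 operated sums against 3 NC sums), 2 genes passed, Bub1b and Egr2 (both lower, named after their values were seen), and none of the 36 did, although each kept its direction and an unadjusted p under 0.05. With a random effect for matched pairs in limma, which also replaced the edgeR test, 37 genes passed, 31 of them among the 36.

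**Figure D2:**
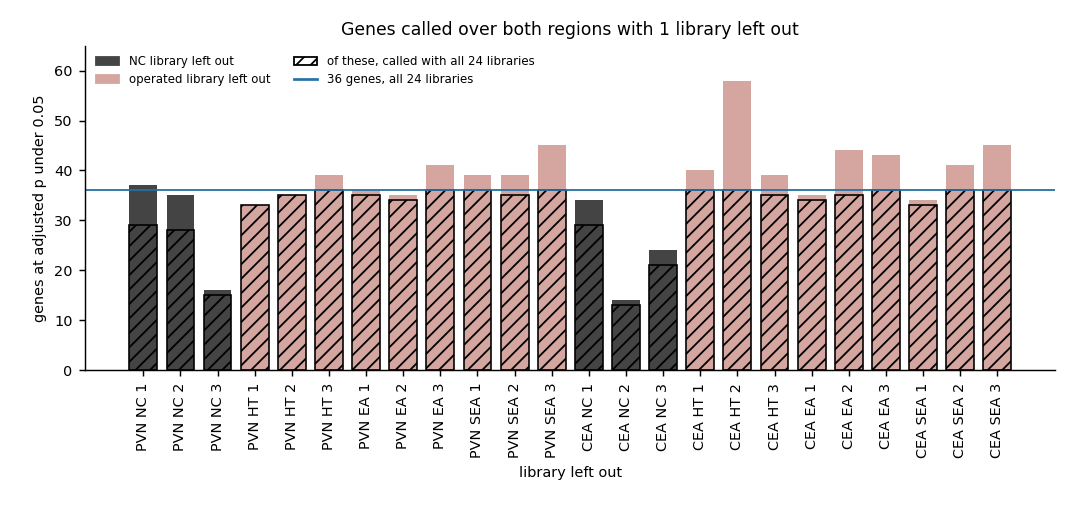
Bars give the number of genes with an adjusted edgeR p under 0.05 over both regions when the library named on the x axis was left out, dark for NC and light for operated libraries, and the hatched part counts those among the 36 genes called with all libraries (blue line). The lowest bars are those without CEA NC replicate 2 (14 genes) and PVN NC replicate 3 (16 genes), and the highest is that without CEA HT replicate 2 (58 genes).

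Heph, the gene for hephaestin, a copper-dependent ferroxidase that helps export iron from cells, was the gene with the smallest p. The table, which names no genome build, places it on chromosome X from 65563122 to 65658516. It was at 13.9, 16.0 and 14.9 CPM in the PVN NC libraries and at 26.2, 34.8 and 43.5 CPM (lowest, median and highest of 9) in the operated ones. In the CEA the NC libraries had 19.4, 16.1 and 14.4 CPM and the operated ones 20.8, 32.9 and 46.2. The lowest operated library exceeded the highest NC library in each region. The log2 fold change was 1.12 ± 0.13 (SE; 2.17-fold higher, edgeR adjusted p = 0.000145), and it was 1.16 for HT, 1.32 for EA and 0.84 for SEA when each was set against the same 6 NC libraries. The adjusted p stayed under 0.05 with any library left out (at most 0.0015) and in 38 of 40 alternative fits, the exceptions being SEA alone (0.0515) and summed matched pairs (0.0582).

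**Figure D3:**
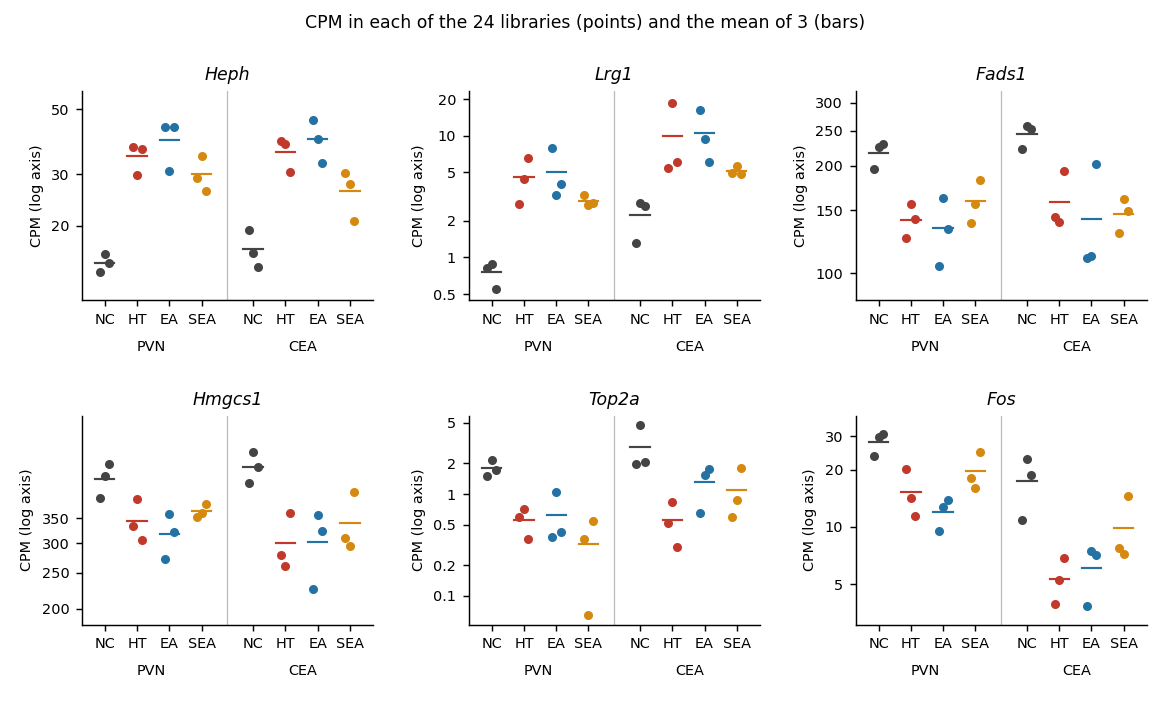
CPM (log axis) of 6 genes in each library, with PVN left and CEA right of the grey line and the treatments NC, HT, EA and SEA within each; points are libraries and bars are means of 3. Heph and Lrg1 are higher in each of the operated libraries than in any NC library of the same region, Fads1, Hmgcs1 and Top2a are lower in each, and Fos overlaps in 1 SEA library of each region.

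Lrg1 (chromosome 9, 10952374 to 10954681 in the table) encodes leucine-rich alpha-2-glycoprotein, a secreted protein induced by inflammatory cytokines in liver and endothelium, and had the largest fold change of the genes that rose outside the histocompatibility region. PVN NC libraries held 0.824, 0.879 and 0.553 CPM and operated PVN libraries 2.72 to 7.88 (median 3.27). CEA NC libraries held 1.32, 2.78 and 2.66 CPM and operated CEA libraries 4.89 to 18.5 (median 6.07). Operated and NC libraries did not overlap in either region. Its log2 fold change was 2.15 ± 0.34, with an edgeR adjusted p of 0.00467. Lrg1 was the only one called of 21 tested genes on the acute phase and cytokine response list (1 higher and 0 lower, where 0.0523% and 0.157% of all genes were), whose median log2 fold change was 0.07, beside 0.003 over all genes tested. Cp, the blood ferroxidase ceruloplasmin, was the next on that list (log2 fold change 0.30, edgeR adjusted p = 0.248), followed by the adhesion molecule Vcam1 (-0.20, edgeR adjusted p = 0.674). S100a8, a calcium-binding protein of neutrophils and monocytes, had a log2 fold change of 2.75 ± 0.63 (SE) but did not pass (edgeR adjusted p = 0.0625), and its partner S100a9 had 2.31 (edgeR adjusted p = 0.115). S100a8 was at 0 to 0.275 CPM in NC libraries, 0 to 5 counts, and at 0.13 to 1.66 CPM in operated ones.

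Outside the histocompatibility region, the other called genes with higher counts were Fn1, Slc27a1, Ch25h and Dbp. Fn1, the gene for fibronectin of the extracellular matrix and blood plasma, rose from 30.2 ± 3.92 CPM (SD, n = 3) to 54.4 ± 13.5 (SD, n = 9) in the PVN and from 58.3 ± 2.45 to 85.7 ± 19.3 in the CEA, with no overlap in either region. This was a log2 fold change of 0.70 ± 0.14 with an edgeR adjusted p of 0.0191. Slc27a1, a fatty acid transporter, rose by less (log2 fold change 0.36 ± 0.06, SE, edgeR adjusted p = 0.00979), with 113 to 138 CPM in PVN NC and 135 to 181 in operated PVN libraries, which overlap, and 116 to 121 against 134 to 179 in the CEA, which do not. Ch25h, the enzyme that makes 25-hydroxycholesterol, a sterol that restrains cholesterol synthesis, was at 0.633, 1.21 and 1.44 CPM in PVN NC and at 1.2 to 3.57 in operated PVN libraries. In the CEA it was at 1.5, 1.89 and 2.06 CPM in NC and at 2.03 to 6.43 in operated libraries. Ch25h had a log2 fold change of 1.13 ± 0.23 (SE) and an edgeR adjusted p of 0.0272, and its lowest operated library overlapped the NC range in each region. Fn1, Ch25h and Dbp lost the call in 3, 6 and 6 of the 24 fits that left out a library. The largest edgeR adjusted p in these was 0.098 for Fn1 (without PVN NC replicate 3), 0.103 for Ch25h (without PVN NC replicate 1) and 0.085 for Dbp (without PVN NC replicate 2). Without passing the test, Zpbp, a sperm protein (log2 fold change 0.63, edgeR adjusted p = 0.06), S100a8 and Vwf, von Willebrand factor of endothelium and platelets (0.54, edgeR adjusted p = 0.0776), had the next smallest p-values among genes with a symbol of their own and higher counts.

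Dbp, a clock-controlled transcription factor, was at 107, 103 and 119 CPM in PVN NC libraries and at 130 to 195 in operated PVN libraries, and at 181, 185 and 171 CPM in CEA NC against 162 to 291. The ranges were apart in the PVN and overlapped in the CEA, where EA replicate 1 had 162 CPM. Dbp had a log2 fold change of 0.47 ± 0.09 (SE) and an edgeR adjusted p of 0.0234. Of 18 circadian clock genes tested, 1 was called higher and 0 lower (0.0523% and 0.157% of all genes), and at an unadjusted p under 0.05, which 7.37% of all genes had, 7 were higher and 1 was lower. The 7 were Dbp, Bhlhe41, Nr1d2, Tef, Nr1d1, Per3 and Per2 (log2 fold changes 0.24 to 0.47). Arntl, whose protein BMAL1 activates Dbp and the Nr1d genes, was the lower one (-0.27, edgeR adjusted p = 0.219). The list's median was 0.32 in the PVN alone and -0.02 in the CEA alone. The study's methods say that all brains were taken at one time; the clock hour is not given in the sources used here.

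RT1-CE10, LOC103690108 and LOC100364500 lie among the RT1 histocompatibility genes of chromosome 20 as the table places them, and counts of such near-identical gene copies are uncertain. RT1-CE10, a class I antigen-presenting gene, was at 0.0549 to 0.76 CPM in PVN NC and 0.66 to 4.42 in operated PVN libraries. In the CEA it was at 0.266 to 1.005 CPM in NC and 0.395 to 5.95 in operated libraries. SEA replicate 1 lay within the NC range in each region. The log2 fold change of RT1-CE10 was 2.57 ± 0.48 (SE, edgeR adjusted p = 0.0139). LOC103690108 was at 0, 0.165 and 0 CPM in PVN NC and at 0 in each CEA NC library. It was at 32.4 to 73.1 CPM in the 6 PVN libraries of HT and EA, at 0, 0.0648 and 69.4 in PVN SEA, and at 0, 0.251 and 46.1 in CEA SEA. The operated mean was 35.7 CPM in the PVN and 25.8 CPM in the CEA, at least 138.9-fold higher than a floor of 3 counts per library in the CEA, where each NC library was at 0. LOC100364500 followed the same libraries: it had 0 to 3 counts in the 6 NC libraries and 22 to 244 in the HT and EA libraries, and its SEA libraries held 1, 2 and 227 counts (PVN) or 1, 8 and 97 (CEA). In each region, SEA replicates 1 and 2 thus held few or no counts of either gene, like NC. Both are among the 11 genes that were on in some libraries and nearly off in others, and with a random effect for matched pairs their limma adjusted p was 0.732 and 0.617. With the same random effect RT1-CE10 had a limma adjusted p of 0.171. These fits used limma in place of edgeR, so the effect of the pairing and that of the change of test cannot be told apart. Of 22 RT1 genes tested, 1 was called higher, RT1-CE10, and 0 lower, where 0.0523% and 0.157% of all genes were.

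By number of called members, cholesterol synthesis was the list with the most genes that fell. By median log2 fold change, cell division (-0.55) and immediate early genes (-0.54) were lower than it. Of 23 cholesterol synthesis genes tested, 6 fell and 0 rose, where 0.157% of all genes fell: Hmgcs1, Mvd, Cyp51, Tm7sf2, Nsdhl and Msmo1. At an unadjusted p under 0.05, which 3.96% of all genes had on the lower side, 13 of the 23 were lower and 0 higher. The direction was lower in both regions in 18 of them, and the list's median log2 fold change was -0.17, beside 0.003 over all genes tested. It was -0.15 in the PVN alone and -0.31 in the CEA alone. Hmgcs1 (chromosome 2, 52431601 to 52445055 in the table), which condenses acetyl-CoA units at the entry of the pathway, was at 398, 456 and 489 CPM in PVN NC and at 272 to 394 in operated PVN libraries (median 354). In the CEA it was at 435, 530 and 482 CPM in NC and at 226 to 413 in operated libraries (median 310). The groups did not overlap in either region, and Hmgcs1 was 1.42-fold lower (log2 fold change -0.51 ± 0.09, edgeR adjusted p = 0.0135).

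The other 5 genes that fell act further along the pathway. Mvd, the last enzyme of the mevalonate steps, had a log2 fold change of -0.48 (edgeR adjusted p = 0.0136). Tm7sf2, Cyp51, Msmo1 and Nsdhl, which remodel lanosterol towards cholesterol, had -0.51, -0.39, -0.34 and -0.36 (edgeR adjusted p 0.00662 to 0.0272). Tm7sf2 was at 20.8, 21.4 and 19.5 CPM in PVN NC and 11.5 to 14.8 in operated PVN libraries, and at 17.7, 23.9 and 18.1 in CEA NC against 11.8 to 20.01. The PVN ranges were apart and the CEA ranges overlapped because of HT replicate 2. Dhcr7, the last step, was just past the threshold (-0.33, edgeR adjusted p = 0.0599). The number of called members fell to 1 when PVN NC replicate 3 or CEA NC replicate 2 was left out, to 2 for CEA NC replicate 3 and to 0 without the 3 choroid plexus libraries. With matched PVN and CEA libraries summed it was 0, and with a random effect for matched pairs in limma it was 6. With single libraries left out, Hmgcs1, Mvd, Cyp51, Nsdhl and Msmo1 reached an edgeR adjusted p of 0.0833 to 0.144 in their least favourable fit. Tm7sf2 passed in each of these but had 0.0617 without the 3 choroid plexus libraries and 0.126 with summed matched pairs.

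Fatty acid synthesis genes, a list of 14 put together after these values were seen, showed 4 members that fell and 0 that rose, where 0.157% of all genes fell. Since the list was made from these values, its count is no evidence of a direction. Scd, the desaturase that makes oleic acid, was at 29.6, 38.3 and 33.4 CPM in PVN NC and at 11.6, 20.1 and 32.8 (lowest, median and highest) in operated PVN libraries. In the CEA it was at 30.02, 44.5 and 41.6 CPM in NC and at 10.1, 14.9 and 30.2 in operated libraries. The highest operated value came from SEA replicate 3 in each region and lay within the NC range, and the next highest values, 21.6 and 17.2, lay below it. Scd was 2.04-fold lower (log2 fold change -1.03 ± 0.17, edgeR adjusted p = 0.00564). Fads1, the delta-5 desaturase of polyunsaturated fatty acids, was at 196, 226 and 230 CPM in PVN NC against 105 to 182, and at 222, 258 and 253 in CEA NC against 111 to 202. Its groups did not overlap in either region (log2 fold change -0.65 ± 0.11, SE, edgeR adjusted p = 0.00558). Acss2, which makes acetyl-CoA from acetate, had -0.48 ± 0.08 (SE, edgeR adjusted p = 0.00467), and Thrsp, a lipogenic protein driven by thyroid hormone, had -1.06 ± 0.21 (SE, edgeR adjusted p = 0.0194). Without PVN NC replicate 3, Thrsp had an edgeR adjusted p of 0.107. Fads2, the delta-6 desaturase beside Fads1 on chromosome 1 (-0.48, edgeR adjusted p = 0.06), and the fatty acid carrier Fabp5 (-0.49, edgeR adjusted p = 0.0522) came close and did not pass. An unannotated transcript (chromosome 1, 226111567 to 226114274, plus strand, in the coordinates of the table, which name no build) ends 138 bases short of Fads2, which is on the minus strand. It was at 46.0 to 68.5 CPM in PVN NC against 23.97 to 36.6, and at 41.3 to 46.1 in CEA NC against 21.5 to 43.5 (log2 fold change -0.72 ± 0.11, SE, edgeR adjusted p = 0.00467). The ranges were apart in the PVN and overlapped in the CEA.

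Of 18 cell division genes tested, 3 fell and 0 rose: Top2a, Kif11 and Bub1 (0.157% of all genes fell). At an unadjusted p under 0.05, 8 were lower (3.96% of all genes) and 0 higher, 11 were lower in both regions, and the median log2 fold change was -0.55 (-0.28 in the PVN alone and -0.43 in the CEA alone). Top2a (chromosome 10, 86901007 to 86932154 in the table), the topoisomerase that untangles sister chromatids, was at 1.52, 2.14 and 1.72 CPM in PVN NC and at 0.0648 to 1.05 (median 0.426) in operated PVN libraries. In the CEA it was at 1.98, 4.73 and 2.06 CPM in NC and at 0.3 to 1.81 (median 0.831) in operated libraries. The groups did not overlap in either region, and the highest value was in CEA NC replicate 2. Top2a was 3.22-fold lower (log2 fold change -1.69 ± 0.30, edgeR adjusted p = 0.0125). Kif11, a motor that pushes spindle poles apart, had -1.11 ± 0.22 (SE, edgeR adjusted p = 0.0191), and Bub1, a kinase of the spindle checkpoint, had -0.96 ± 0.20 (SE, edgeR adjusted p = 0.0322). Cdk1, the mitotic kinase (-1.36, edgeR adjusted p = 0.0804), and the proliferation marker Mki67 (-0.61, edgeR adjusted p = 0.127) did not pass.

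A further 5 of the genes that fell were not on that list and code for proteins of the mitotic spindle or its checkpoint: Nusap1 (log2 fold change -1.77), Ckap2l (-1.49), Ndc80 (-1.25), Ckap2 (-1.19) and Cdc20 (-0.75). They were grouped after their values were seen. Nusap1 was at 0.633, 0.824 and 0.775 CPM in PVN NC and at 0 to 0.58 in operated PVN libraries, and at 1.08, 2.66 and 1.39 CPM in CEA NC against 0.132 to 1.1. The ranges were apart in the PVN and met in the CEA, where SEA replicate 3 had 1.1 CPM. These are low levels: Nusap1 had 10 to 45 counts in NC libraries and 0 to 14 in operated ones, and Top2a had 24 to 80 and 1 to 31. Leaving out CEA NC replicate 2 took the cell division list to 0 called members (edgeR adjusted p 0.0918 for Top2a, 0.126 for Kif11 and 0.162 for Bub1), the loss of the 3 choroid plexus libraries took it to 0 as well, and leaving out replicate 2 or 3 of PVN NC took it to 1. With matched pairs summed, none of these 3 passed, while Bub1b, a listed gene that the filter on low counts had left out of the test over 24 libraries, did. With the random effect for matched pairs, Top2a and Kif11 passed. The log2 fold changes of Top2a were -2.05 for HT, -1.31 for EA and -1.85 for SEA, each against the same NC libraries.

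Immediate early genes were the third group with lower counts. Of 18 tested, 3 fell (0.157% of all genes) and 0 rose, 11 were lower (3.96% of all genes) and 0 higher at an unadjusted p under 0.05, and the median log2 fold change was -0.54 (-0.35 in the PVN alone and -0.76 in the CEA alone). Junb (chromosome 19, 26092974 to 26094756 in the table), a subunit of the AP-1 transcription factor, was at 46.4, 53.4 and 50.4 CPM in PVN NC and at 22.4 to 37.9 (median 28.7) in operated PVN libraries. In the CEA it was at 56.4, 83.8 and 70.2 CPM in NC and at 34.1 to 56.8 (median 43.3) in operated libraries. The ranges were apart in the PVN and met in the CEA, where SEA replicate 2 had 56.8 CPM. Junb was 1.62-fold lower (log2 fold change -0.70 ± 0.11, edgeR adjusted p = 0.00467), and it passed with any library left out. Fos, the partner of Junb in AP-1, was at 23.6, 29.8 and 30.8 CPM in PVN NC against 9.47 to 24.7, and at 10.9, 22.8 and 18.9 CPM in CEA NC against 3.82 to 14.6. SEA replicate 3 was the highest operated library in each region and lay within the NC range. Fos had a log2 fold change of -1.08 ± 0.20 (SE) and an edgeR adjusted p of 0.0139, with -1.28 for HT, -1.36 for EA and -0.67 for SEA.

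Arc, a synaptic gene transcribed with neuronal activity, was at 66.5, 109 and 97.2 CPM in CEA NC against 28.1 to 74.8, and at 9.88, 10.9 and 13.0 CPM in PVN NC against 4.89 to 10.1. Its ranges overlapped in both regions (log2 fold change -0.75 ± 0.16, SE, edgeR adjusted p = 0.0398), and it passed in 12 of the 24 fits that left out a library. Egr1 (-0.72, edgeR adjusted p = 0.0599) and Nr4a1 (-0.85, edgeR adjusted p = 0.269) had lower values without passing. Egr2 (-1.28, edgeR adjusted p = 0.0528) differed between the regions in its values: it was at 0.855 ± 0.195 CPM (SD, n = 3) in PVN NC and 0.912 ± 0.28 (SD, n = 9) in operated PVN libraries, and at 15.3 ± 6.06 and 3.75 ± 1.3 in the CEA. The difference between regions in its fold change had an unadjusted edgeR p of 7.42e-05 and an adjusted p of 0.194. Called members of this list numbered 1 when CEA NC replicate 2 or 3 was left out and 1 without the 3 choroid plexus libraries. With matched pairs summed, Egr2 alone was called and none of the 3, and with the random effect for matched pairs 4 were. In the other direction, 5 were called without PVN NC replicate 1, PVN SEA replicate 1 or CEA HT replicate 1, and 6 without PVN EA replicate 3. Gpr3, a receptor that keeps cyclic AMP high in neurons, also fell (-0.71 ± 0.14, SE, edgeR adjusted p = 0.0191), and its ranges were apart in the CEA and overlapped in the PVN.

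**Figure D4:**
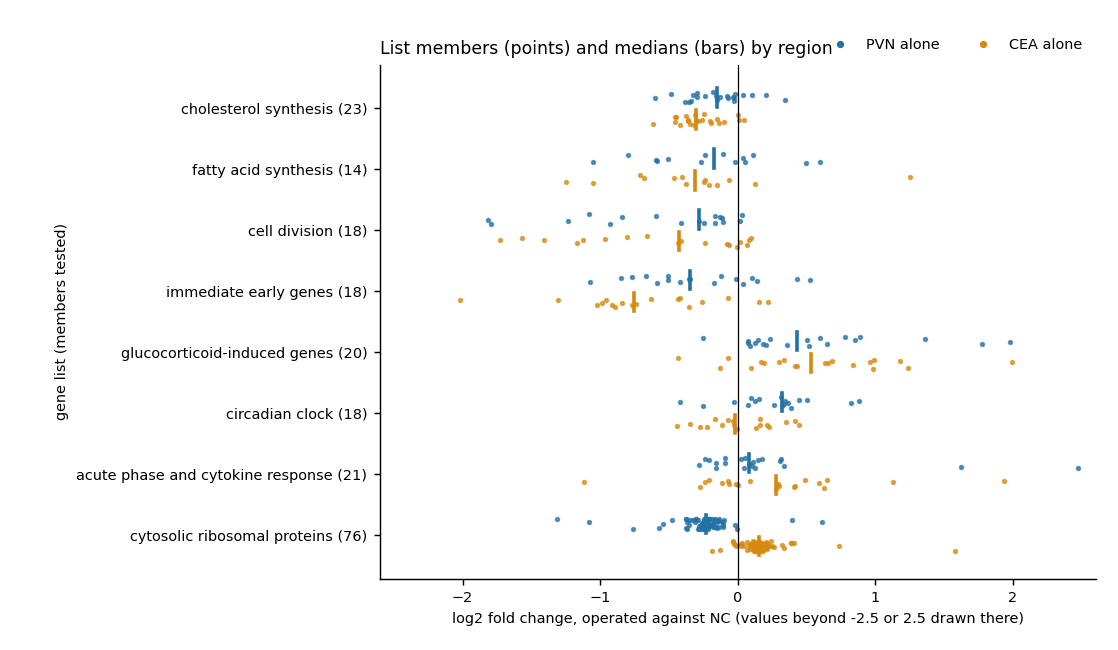
Each point is a gene of the list named at the left (number of members tested in brackets), placed at its log2 fold change in operated against NC libraries of the PVN alone (blue) or the CEA alone (orange), and bars are medians. The medians of cholesterol synthesis, cell division and immediate early genes lie below 0 in both regions, those of glucocorticoid-induced genes above 0 in both, and those of ribosomal protein genes on opposite sides.

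The remaining genes that fell were of several kinds. Gfap, the intermediate filament of astrocytes, was at 453, 509 and 419 CPM in PVN NC and 226 to 387 in operated PVN libraries, and at 582, 913 and 541 CPM in CEA NC against 315 to 574. Its ranges were apart in the PVN and overlapped in the CEA (log2 fold change -0.62 ± 0.11, SE, edgeR adjusted p = 0.0134), and without CEA NC replicate 2 its edgeR adjusted p was 0.0868. Gfap was the only one called of 6 astrocyte markers tested (0.157% of all genes were called lower), and the list's median was -0.07. Aqp4, the water channel of astrocyte endfeet, had -0.35 (edgeR adjusted p = 0.242). In bulk tissue, fewer cells of a type and less RNA per cell cannot be told apart. Pcdh12, a protocadherin of endothelial junctions, was at 2.32 to 2.36 CPM in PVN NC against 0.358 to 1.8, and at 3.43 to 5.87 in CEA NC against 0.946 to 2.68, with no overlap in either region (-1.29 ± 0.24, SE, edgeR adjusted p = 0.0135). Glud1, the mitochondrial glutamate dehydrogenase (-0.37), and the tubulin gene Tubb5 (-0.35) fell by little but without overlap in either region. Glud1 was at 716 to 729 CPM in PVN NC against 479 to 654, and Tubb5 at 649 to 878 against 519 to 620. Pcdh12 lost the call without CEA NC replicate 1 (edgeR adjusted p = 0.0695), and Tubb5 and Glud1 lost it in 4 and 8 of the 24 fits that left out a library.

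Genes of the stress axis itself did not pass the test over both regions. Of 22 genes of the stress axis and stress peptides tested, 0 were called, with a median log2 fold change of -0.12. In the PVN alone, 3 were higher and 6 lower at an unadjusted edgeR p under 0.05 (16.9% and 14.9% of all genes were). At the adjusted threshold 1 was higher and 1 lower there (5.43% and 4.04% of all genes). Crh was at 12.3, 8.07 and 12.4 CPM in PVN NC and at 4.3, 8.22 and 10.1 (lowest, median and highest) in operated PVN libraries, and at 0.589 to 3.16 CPM in the CEA libraries. Its log2 fold change was -0.45 in the PVN and 0.45 in the CEA, and -0.10 ± 0.27 over both (SE, edgeR adjusted p = 0.927). Avp, the gene for vasopressin (0.15 ± 0.32, SE, edgeR adjusted p = 0.911), and Oxt, the gene for oxytocin (0.13 ± 0.38, SE, edgeR adjusted p = 0.935), had lower means in the PVN and higher means in the CEA of operated rats. Hsd11b1, which regenerates active corticosteroid inside cells, had 0.29 (edgeR adjusted p = 0.524), and Adcyap1r1, the receptor for the stress peptide PACAP, had 0.18 (edgeR adjusted p = 0.45).

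Glucocorticoid-induced genes, which report corticosteroid signalling in the tissue, had 0 called of 20 tested, while 17 had a higher fitted value in both regions. The median log2 fold change was 0.45 over both regions, 0.43 in the PVN alone and 0.53 in the CEA alone, and at an unadjusted p under 0.05, which 3.42% of all genes had on the higher side, 4 were higher and 0 lower. The summed CPM of the list had a lower median in operated than in NC libraries: it was 627.3 (467.0 to 722.5) in PVN NC against 600.6 (475.3 to 1320) in operated PVN libraries, and 955.7 (730.0 to 1160) against 878.3 (714.8 to 2158) in the CEA. In each region 4 of the 9 operated libraries lay above the NC range. Zbtb16 (1.46, edgeR adjusted p = 0.154), Sult1a1 (1.66, edgeR adjusted p = 0.223) and Map3k6 (0.93, edgeR adjusted p = 0.58) led the list. Fkbp5, a co-chaperone induced by glucocorticoids, was at 34.3, 31.4 and 29.0 CPM in PVN NC and at 28.8, 35.6 and 95.6 (lowest, median and highest) in operated PVN libraries. In the CEA it was at 82.1, 53.5 and 63.0 CPM in NC and at 55.4, 79.9 and 161 in operated libraries. The operated median was above the NC median in each region, and a few operated libraries were far above the rest (log2 fold change 0.47 ± 0.23, SE, edgeR adjusted p = 0.675).

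Among the other lists, interferon response (23 genes), heat shock and chaperones (16), fasting and lipid fuel genes (15) and feeding peptides (13) had 0 called members each, with medians of 0.06, -0.03, 0.10 and -0.04. Cytosolic ribosomal protein genes (76) had 0 called members and medians of -0.23 in the PVN and 0.15 in the CEA, which are opposite in sign. Mitochondrial genome genes (24) had 0 called members and a median of -0.12. Marker lists of microglia (7 genes), vessels (5), oligodendrocytes (8), choroid plexus (7), blood (4), striatum (6), thalamus (6), cortical and hippocampal excitatory neurons (6) and of the PVN (7) and CEA (5) themselves had 0 called members each. Tmem119, a microglial marker, had the smallest p of its list (log2 fold change 0.39, edgeR adjusted p = 0.42). Summed microglial markers were at 243.4 to 255.0 CPM in PVN NC against 232.0 to 312.2, and at 307.0 to 407.2 in CEA NC against 332.8 to 500.7. Summed astrocyte markers were at 3696 to 4106 CPM in PVN NC against 3342 to 3966 and at 3642 to 4664 in CEA NC against 3134 to 4247. The 5 vessel markers tested summed to 161.5 to 195.4 CPM in PVN NC against 198.4 to 263.0 in operated PVN libraries, which did not overlap, and to 313.1 to 333.7 in CEA NC against 252.3 to 448.5, which did. In the PVN alone, 4 of these 5 were higher at an unadjusted p under 0.05 (16.9% of all genes were) and Acta2, of smooth muscle, was lower. Summed blood markers were at 968.7 to 1336 CPM in PVN NC against 511.0 to 1308, and at 1047 to 1485 in CEA NC against 732.2 to 1271. The part of these differences in the results above was not tested.

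How far the regions shared a response at all was read from separate fits. In the PVN alone, 1631 of 17211 genes passed the adjusted threshold (9.48%), 935 higher (5.43%) and 696 lower (4.04%), and 31.8% had an unadjusted p under 0.05. This count changed with most single libraries: leaving out NC replicate 3 of that region gave 0 genes, NC replicate 1 gave 1 and NC replicate 2 gave 6103. Of 9 operated PVN libraries, 8 took it to between 6 and 26 when left out, and without EA replicate 1 it was 1491. In the CEA alone, 0 of 17046 genes passed by edgeR, with 501 at an unadjusted p under 0.05 (2.94%), while DESeq2 called 13. Of 16596 genes fitted in both regions, 41.6% had the same direction in the PVN and the CEA, and the fold changes had a Spearman rho of -0.18 across genes, which are not independent replicates. At an unadjusted p under 0.05, 153 genes passed in both regions. That was 31.5% of the 485 CEA genes, where 32.6% of all genes passed in the PVN, and 2.83% of the 5406 PVN genes, where 2.92% of all genes passed in the CEA. Of the 153, 95 had the same direction (39 higher and 56 lower), which is 62.1%, and 58 had opposite directions. The difference between regions passed the adjusted threshold for 0 of 17218 genes by edgeR and for 63 by DESeq2, with 2647 at an unadjusted edgeR p under 0.05 (15.4%, 5.9% with a higher log2 fold change in the CEA than in the PVN and 9.47% with a lower one), and for 1897 by edgeR without PVN NC replicate 2.

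**Figure D5:**
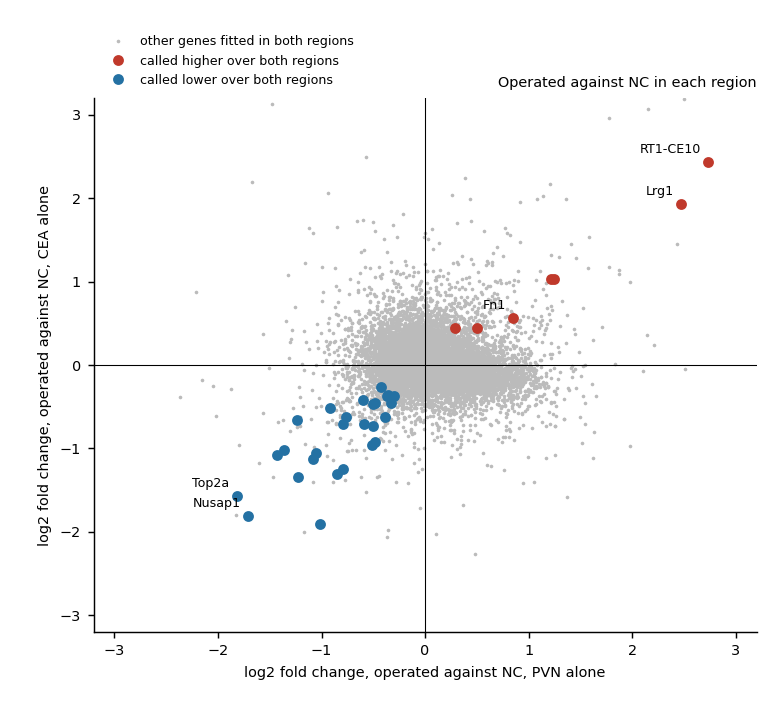
Each point is a gene, at its log2 fold change in operated against NC libraries of the PVN alone (x axis) and of the CEA alone (y axis); red and blue points are genes called higher or lower over both regions and grey points are the others. The called genes lie in the lower left and upper right quadrants while the cloud of all 16596 genes, called ones included, does not lean that way, and 11 genes, 2 of them called, lie outside axes drawn to 3.2.

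Each operated treatment was also set against the 6 NC libraries with region as a covariate. These comparisons share their controls and make up the joint one, so they describe which animals carry the 36 genes. All 35 that could be fitted had the joint direction and an unadjusted p under 0.05 for HT, as did all 36 for EA and all 33 fitted for SEA. The filter on low counts left out the rest. For SEA these included LOC103690108 and LOC100364500, with few or no counts in NC and in SEA replicates 1 and 2. Genes left out could not go against the joint direction. At the adjusted threshold, 7 of 16604 genes were called for HT (0.0422%), 5 of them among the 36, and 18 of 16654 for EA (0.108%), 11 of them among the 36. For SEA 2 of 16483 were called (0.0121%), Nat8f3 (higher) and RF00405 (lower), 0 of them among the 36, and 1263 had an unadjusted edgeR p under 0.05. Log2 fold changes of Scd were -1.16 for HT, -1.27 for EA and -0.69 for SEA, and those of Lrg1 were 2.36, 2.45 and 1.53. Differences between the operated treatments were not tested here.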

How the data were processed

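The libraries were strand-specific and held mRNA; groups and replicate numbers came from the sample titles. The deposited values are counts of reads per gene in whole numbers, mapped by the authors with HISAT2 and counted with featureCounts, without normalization. The submitters' processing notes name GRCh38, a human build, and the study's methods name mRatBN7.2; the table names none, and a gene on chromosome 1 ends at 282724300, past the end of that chromosome in the latter. A stray header line inside the table was dropped; it exchanges CEA EA replicates 2 and 3. The table held 35032 genes, 2149 of them without an Ensembl identifier.

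Counts were tested in R 4.3.3 with edgeR 4.0.16 (quasi-likelihood, two-sided, filterByExpr, TMM, Benjamini-Hochberg, threshold 0.05). SE is the fold change over the root of F. A count of 0 allows up to 3 counts; such limits cover counting error only. Alternatives used DESeq2 1.42.0, limma 3.58.1, other filters and left-out libraries. On simulated counts the fit was checked first. Named genes were up to 10 per direction by p, up to 5 of uncertain identifier, up to 3 per list, and Crh, Avp, Oxt and Fkbp5; other called genes were added after their values were seen. Groups, genes and lists were chosen with earlier results of these data known, and the fatty acid list and motifs after the fold changes were seen. P-values measure the spread between libraries.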

Additional observations from a re-analysis of the deposited data

Results flagged for a closer look

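Among the operated libraries of a region (9 each), 19 of 142 sets of values had a highest or lowest library far from the nearest other. This is 13.4%, beside a nominal rate of 5%. The sets share libraries and many genes were picked by their values, so the excess over that rate is no test. SEA replicate 3 was the highest in several genes that were lower in operated rats: Scd at 32.8 CPM in the PVN and 30.2 in the CEA, Thrsp at 13.5 in the PVN, Fos at 14.6 and Gpr3 at 6.63 in the CEA, and it was the highest for Adcyap1r1 at 493 in the PVN. HT replicate 3 of the PVN was the highest for Fn1 (85.6 CPM) and Zbtb16 (40.7) and the lowest for Crh (4.30) and Oxt (150.1). HT replicate 2 of the CEA was the highest for Sult1a1 (91.3 CPM), Fabp5 (68.6) and Map3k6 (5.50). HT replicate 3 of the PVN and HT replicate 2 of the CEA matched each other in the genes that were on or off between libraries. Other values far from the rest were Fn1 in CEA EA replicate 1 (129.0 CPM), Nr4a1 in PVN EA replicate 3 (49.3) and CEA EA replicate 2 (63.5), which also matched each other, Hsd11b1 in PVN EA replicate 1 (32.5) and Ifit3 in PVN SEA replicate 2 (9.45). The mitochondrial share of 3.798% in CEA EA replicate 2 was the lowest of the operated CEA libraries.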

How the results depend on the processing

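Over both regions, 36 genes passed the adjusted threshold, and 100 with DESeq2 (41 higher and 59 lower, with all 36 among them), 1392 at the study's unadjusted DESeq2 threshold, 4 with PVN and CEA libraries summed by number (Heph, Ckap2, Egr2 and Melk), 2 summed by matched pairs, 7, 18 and 2 with HT, EA or SEA alone as the operated group, 11 without the 3 choroid plexus libraries and 10 without CEA EA replicate 2 as well. The last 2 settings and the matched pairs were chosen after seeing the data. With 1 library left out the count ran from 14 to 58. In the PVN alone, 1631 genes became 3108 with DESeq2, 665 without a filter (25947 genes tested) and 0 to 6103 with 1 library left out. In the CEA alone, 0 became 13 with DESeq2, 1 without a filter (Egr2) and 0 to 1 with 1 library left out (Egr2 or Scd). The difference between regions gave 0 genes, 63 with DESeq2 and 0 to 1897 with 1 library left out. The 14 genes separated in both regions became 13 with other scaling factors and 14 to 24 with 1 library left out. Replicate numbers were not taken to pair the samples across treatments, since correlations of samples with the same number ran from -0.094 to 0.166 in the PVN (2 of 18 over 0.1) and from -0.282 to 0.309 in the CEA (8 of 18 over 0.1), although 7 of 12 libraries of each region correlated best with their own number. With the replicate block, 42 genes passed over both regions, 35 of them among the 36, 2244 in the PVN and 0 in the CEA or for the difference. Directions turned for 3 genes that did not pass. Crh had 0.28 with EA alone, and with 1 library left out it ran from -0.25 to 0.02, with 0.014 for PVN NC replicate 1 and 0.024 for replicate 3. Avp had -0.18 with HT alone, -0.14 summed by number and -0.15 by matched pairs, and ran from -0.032 (CEA NC replicate 3 left out; -0.012 for replicate 2) to 0.36. Oxt had -0.27, -0.23 and -0.25 in the same fits, -0.032 without the 4 CEA libraries, and ran from -0.11 (CEA NC replicate 3 left out; -0.009 for replicate 2) to 0.32. The cause was not tested. Of 1432 values for the 36 genes under alternatives, 1110 kept direction and side of the threshold, 322 kept direction only and 0 reversed.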
